A study of Mus musculus with 6 samples.

Results

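Type I interferon-stimulated genes are those that a cell switches on when interferon alpha or beta reaches its receptor. The receptor's kinases activate a transcription factor complex that holds STAT2 and IRF9 and binds the interferon-stimulated response element in the promoters of these genes. The products sense viral RNA, block viral replication or, as USP18 does, switch the receptor off again. In CD8+ T cells type I interferon is known as a signal that acts beside the antigen receptor in shaping effector responses. A fixed list of 40 such genes was read here in CD8+ T cells sorted from mouse liver. Members were found by an exact match of the gene name in the array files to the list, whatever their values. The list itself was chosen with earlier results of these data known. Of the 40, 38 were on the array, with 59 of its 41174 non-control probes, and Dtx3l and Ifi27 had no probe under those names. For 37 genes (55 probes) a probe lay well above background, as called by the scanner software, on at least 3 of 6 arrays. The brightest such probe, which reads the gene below, was above background on all 6 arrays for all 37, so that no member was kept through 1 group alone. Oas1g, a 2-5A synthetase, was above background on no array (2.79 to 6.14 intensity units) and has no fold here.

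The TG mice had the dnTGFβRII transgene, which makes a receptor that blocks TGF-beta signalling and is known to be driven in T cells by a CD4 promoter. The TGC3 mice had the same transgene and lacked the chemokine receptor CXCR3 (dnTGFβRII CXCR3-/-). All mice were females of the C57BL/6 background aged 13 to 14 weeks, and mice without the transgene were not analysed here. Each group had 3 samples, each on a one-colour Agilent array, named here TGC3 1 to TGC3 3 and TG 1 to TG 3. The labels do not say that the samples came from separate mice or whether mice were pooled, so the p-values rest on the variation among these samples alone, which may be technical.

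The 3 TGC3 arrays shared a slide and a scan and the 3 TG arrays shared another, and an effect of the slide cannot be told apart from one of the genotype. Array TG 3 stood apart within its group for the genes described here, with the highest TG value for 33 of 37, and counts are therefore also given without it. Between 58.9% and 63.8% of probes were well above background on an array. Cxcr3, the deleted gene, read -4.64 to -4.21 in TGC3 and 6.85 to 6.94 in TG on the scale below. All 9 measured T cell markers were above background, and Cd8a, which encodes a chain of CD8, read 7.27 to 7.66. Values are the log2 of the processed signal after subtracting that array's 75th percentile, so that 0 is the level of the 75th percentile probe. Changes are TGC3 minus TG with their standard error from limma, and p is adjusted over all 25103 probes tested.

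The promoters of these genes show how the response element is written, and the sequences below are 7 of the 9 in which a pair of GAAA separated by any 2 bases lay wholly before the start (on the other strand, a pair of TTTC with the same gap), those of Oas3 and Bst2 not being shown. RefSeq (GRCm38.p6) gave a promoter, from 250 bases before to 50 after the start, for 28 members. A match on either strand, anywhere in the 300 bases and with overlapping matches counted separately, was found for 13 of these 28 genes (46.4%), against 3.99% of 27025 genes with a promoter in that table. Capitals mark the matches, and each sequence is given 5′ to 3′ on the gene's own strand.
Isg15: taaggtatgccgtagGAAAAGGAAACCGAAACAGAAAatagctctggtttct
Oas1a: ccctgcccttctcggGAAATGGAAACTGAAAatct
Oas1g: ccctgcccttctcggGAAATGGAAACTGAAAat
Ifit1: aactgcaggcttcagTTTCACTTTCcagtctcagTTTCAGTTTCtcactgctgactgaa
Ifit3: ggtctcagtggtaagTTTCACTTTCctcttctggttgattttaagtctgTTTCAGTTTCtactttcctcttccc
Rsad2: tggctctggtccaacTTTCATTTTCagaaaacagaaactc
Stat2: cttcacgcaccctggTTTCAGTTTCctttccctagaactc
These lie at chr4:156200860-156200911 (minus strand) for Isg15, chr5:120907526-120907560 (minus) for Oas1a, chr5:120887614-120887646 (minus) for Oas1g, chr19:34640770-34640828 (plus) for Ifit1, chr19:34583358-34583431 (plus) for Ifit3, chr12:26456548-26456587 (minus) for Rsad2 and chr10:128270261-128270300 (plus) for Stat2. Isg15 held 3 overlapping matches in a run. Oas1a and its neighbour Oas1g held the same pair of overlapping matches just before the start, although only Oas1a was above background on these arrays. Ifit1 and Ifit3 held 2 matches each, TTTCACTTTC and, nearer the start, TTTCAGTTTC, which was also the match in Stat2. Of these 7 genes, Rsad2 and Stat2 fell in TGC3, Ifit1, Ifit3, Isg15 and Oas1a did not pass the test, and Oas1g was not tested. The motif is a match of letters and not a measured binding site.

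None of the interferon-stimulated genes was called higher in TGC3, and 9 of 37 fell. Usp18, the protease that removes ISG15 and shuts down the receptor, changed most, 2.18-fold lower in TGC3, followed by the dynamin-like GTPase Mx2 (1.97-fold), the OAS-like gene Oasl1 (1.71-fold), the exonuclease Isg20 (1.63-fold) and Rsad2, which encodes viperin (1.49-fold). Zbp1, Ddx58, Stat2 and Ifi35 fell by less, 1.18-fold to 1.36-fold. Over all 16395 genes tested, 8.53% were called lower and 16.1% higher, against 24.3% and 0 of the members (0 higher also at an unadjusted p under 0.05, with limma). Since the list was chosen with earlier results of these data known, the shares describe it and do not test it. The split over all genes depended on the scaling, with 1398 lower and 2643 higher here and 4755 lower and 1816 higher when arrays were centred on the median, where 17 members were lower and 0 higher. Of the 55 member probes, 12 (21.8%) were lower, against 8.37% of all probes, and 0 higher, against 13.7%. In either direction, 22.1% of all probes were called. The median change of the 37 genes was -0.23, against -0.01 for all genes, and 28 of 37 changes lay below 0. In 13 members all TGC3 values lay below all TG values and in 0 above, against 22.4% and 24.3% of all genes.

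**Figure D1:**
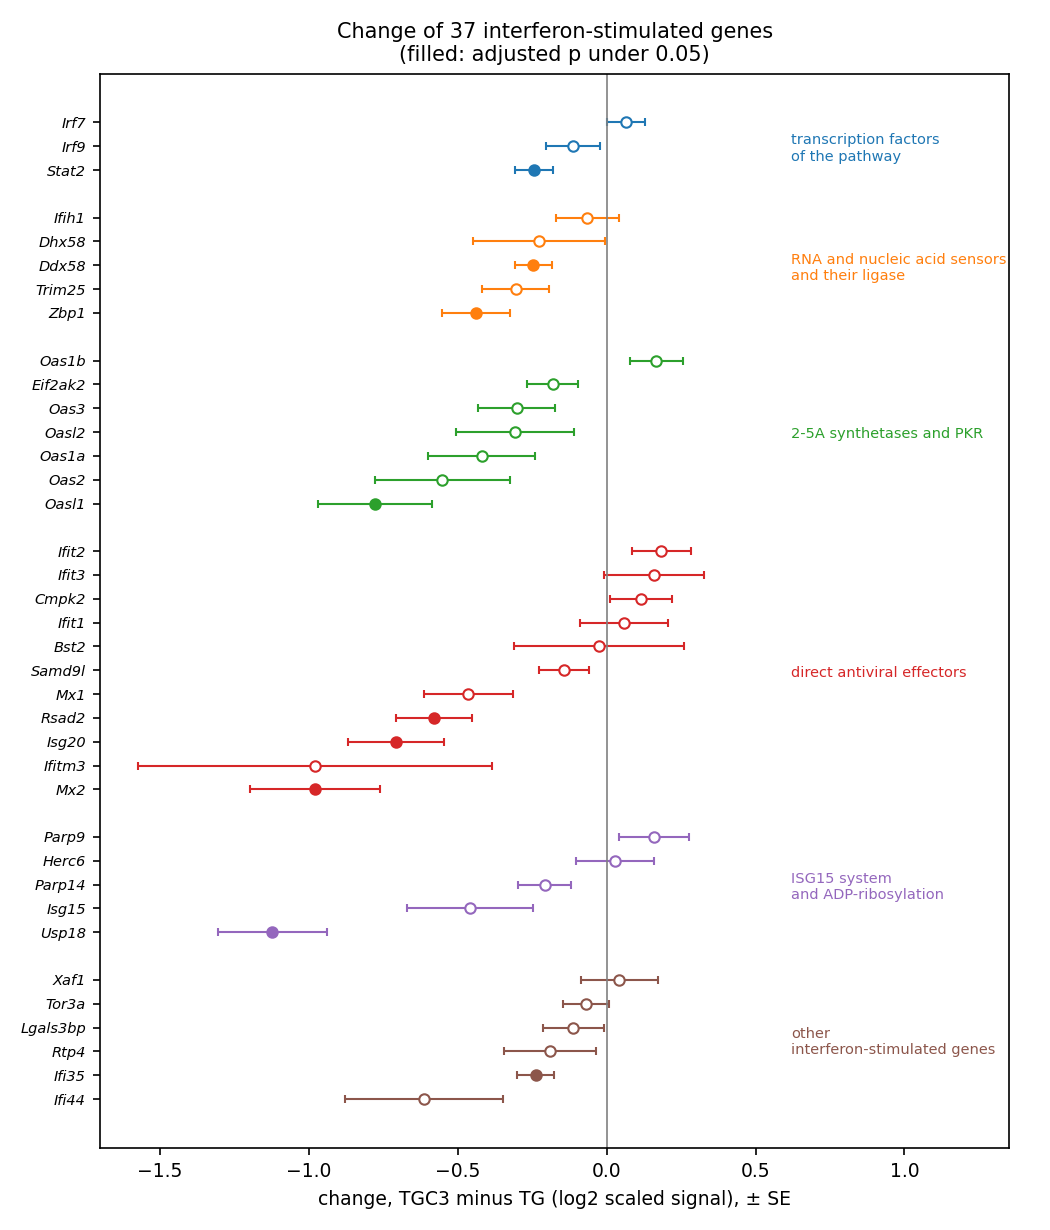
Change of each of the 37 genes, TGC3 minus TG in log2 of the scaled signal (horizontal axis) with its standard error from limma, 3 arrays a group, grouped by role. Filled points passed adjusted p 0.05. All 9 filled points lie left of 0, with Usp18 (-1.12) farthest out, and no point lies to the right of 0.18.

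The count rested on all 6 arrays. Without TGC3 1, TGC3 2 or TGC3 3, 3, 5 and 1 members were lower, and without TG 1, TG 2 or TG 3, 2, 4 and 1. Without TGC3 1, TGC3 2 or TGC3 3 these were 8.11%, 13.5% and 2.7% of the members, against 3.9%, 8.23% and 3.97% of all genes. Without TG 1, TG 2 or TG 3 they were 5.41%, 10.8% and 2.7%, against 2.92%, 3.06% and 4.53% of all genes. The members' share thus lay below that of all genes without TGC3 3 or TG 3. Usp18 passed in all 6 of these fits, Isg20, Rsad2 and Mx2 in 2, Zbp1 and Oasl1 in 1, and Stat2, Ddx58 and Ifi35 in 0. The median change of the members was -0.17 without TG 3 and -0.19 without TGC3 3, and lay between -0.25 and -0.23 without any 1 of the others.

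Usp18 belongs with the ISG15 system, in which ISG15, a ubiquitin-like protein, is attached to other proteins by ligases such as HERC6 and removed by USP18. Its probe (NM_011909, mm9, chromosome 6, 121220513 to 121220572, plus strand) had a processed signal of 1111, 1592 and 1068 in the TGC3 arrays against 2346, 2278 and 3226 in the TG arrays. Scaled, these became 0.90, 1.38 and 0.78 for TGC3 and 2.06, 1.99 and 2.38 for TG. The groups did not overlap, the highest TGC3 array lying 0.61 below the lowest TG array, and the change was -1.12 ± 0.18 (limma, adjusted p = 0.0102). Isg15 itself had values of 1.27, 0.64 and 0.95 for TGC3 and 1.36, 1.13 and 1.74 for TG. Those groups overlapped, and its change of -0.46 ± 0.21 did not pass (limma, adjusted p = 0.168). Parp14 and Parp9 are ADP-ribosyltransferases, of which PARP9 works with DTX3L. Parp14 had a change of -0.21 ± 0.09 at its brightest probe (limma, adjusted p = 0.148), with no overlap of the groups. All 3 of its probes had separate groups in the same direction, and the dimmest passed (-0.41 ± 0.08, limma, adjusted p = 0.0159). Parp9 (0.16 ± 0.12) and Herc6 at its brightest probe (0.03 ± 0.13) had changes above 0 and overlapping groups. The second Herc6 probe changed by 0.16 ± 0.12. The dimmest, above background on 2 of 3 TGC3 arrays, went the other way with separate groups, without passing (-0.89 ± 0.25, limma, adjusted p = 0.0505).

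Among the transcription factors, Stat2 fell by a small and even amount. STAT2 carries a transactivation domain of the interferon-activated complex. Its values (NM_019963, mm9, chromosome 10, 127729181 to 127729240) were 1.71, 1.60 and 1.60 for TGC3 and 1.87, 1.89 and 1.89 for TG. Its pooled spread was the smallest of the 37 members, with SDs of 0.06 and 0.01 (n = 3), and its change of -0.24 ± 0.06 passed (limma, adjusted p = 0.0377). Irf9, the DNA-binding part of the complex, had values of 2.83 to 2.94 in TGC3 and 2.90 to 3.18 in TG, which overlapped (change -0.11 ± 0.09). The groups also overlapped at the dimmer Irf9 probe (0.17 ± 0.13). Irf7, the factor that amplifies interferon production and a standard marker of the response, read 0.58, 0.55 and 0.50 in TGC3 and 0.46, 0.43 and 0.55 in TG; its change of 0.06 ± 0.06 did not pass (limma, adjusted p = 0.502).

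Of the 5 genes that sense nucleic acids or serve a sensor, 2 fell and the changes of all 5 lay below 0. Zbp1, a sensor of Z-form nucleic acid that starts necroptosis (NM_021394, mm9, chromosome 2, 173032113 to 173032170), read 3.09, 2.75 and 2.72 in TGC3 and 3.23, 3.38 and 3.28 in TG. Its change was -0.44 ± 0.12 (limma, adjusted p = 0.0408). TGC3 1 lay close to the TG arrays and the other TGC3 arrays well below them. Ddx58, which encodes the RNA sensor RIG-I (NM_172689, mm9, chromosome 4, 40156918 to 40156977), read 2.70, 2.65 and 2.62 in TGC3 and 2.87, 2.88 and 2.96 in TG, a change of -0.25 ± 0.06 (limma, adjusted p = 0.0370). Its other 3 probes changed by -0.22 to -0.16 and did not pass. Trim25, a ubiquitin ligase linked to RIG-I, had separate groups at its brighter probe (2.06 to 2.45 in TGC3, 2.47 to 2.65 in TG) without passing (-0.31 ± 0.11, limma, adjusted p = 0.0999). At its dimmer probe the groups overlapped (-0.06 ± 0.09). Dhx58, a regulator of RIG-I, and Ifih1, which encodes the sensor MDA5, had overlapping groups (-0.23 ± 0.22 and -0.07 ± 0.11). The dimmer Ifih1 probe had all TGC3 values above all TG values without passing (0.27 ± 0.11, limma, adjusted p = 0.128).

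The 2-5A synthetases make the oligoadenylates that activate RNase L, and PKR, encoded by Eif2ak2, halts translation. Of the 7 measured, Oasl1 alone passed. Oasl1, an OAS-like protein without synthetase activity that limits the translation of Irf7 (NM_145209, mm9, chromosome 5, 115387556 to 115387615), had values of -1.07, -0.84 and -0.64 for TGC3 and -0.42, -0.05 and 0.25 for TG. The groups were separate though both spread widely, and the change was -0.78 ± 0.19 (limma, adjusted p = 0.0339). Oas1a (-0.42 ± 0.18), Oas3 (-0.30 ± 0.13) and Eif2ak2 (-0.18 ± 0.09), the brightest of those that did not pass, had overlapping groups. The dimmer Oas3 probe changed by -0.0005 ± 0.08. For Oas2 (-0.55 ± 0.23, limma, adjusted p = 0.132) the groups were separate, with TG 3 (-0.63) well above TG 1 and TG 2 (-1.48 and -1.27). Oas1b had a change above 0 (0.17 ± 0.09), as the one member of this group to do so. Oasl2, another OAS-like gene, had overlapping groups (-0.31 ± 0.20). The Oas1 genes are close copies of each other, so that their probes may share target.

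Among 11 direct effectors 3 fell, and the 3 IFIT genes did not pass the test. Mx2 (NM_013606, mm9, chromosome 16, 97782327 to 97782386) read -2.17, -1.83 and -2.52 in TGC3 and -1.26, -1.45 and -0.86 in TG, a change of -0.98 ± 0.22 (limma, adjusted p = 0.0251). Isg20 (NM_020583, mm9, chromosome 7, 86061478 to 86061537) read 0.38, 0.35 and -0.07 in TGC3 and 0.82, 0.79 and 1.18 in TG, a change of -0.71 ± 0.16 (limma, adjusted p = 0.0275). For both genes TGC3 3 was lowest and TG 3 highest. The second Isg20 probe, in another part of the gene, passed as well (-0.67 ± 0.15, limma, adjusted p = 0.0274). Rsad2 (NM_021384, mm9, chromosome 12, 27127859 to 27127918) read -1.51, -1.33 and -1.68 in TGC3 and -0.94, -1.10 and -0.74 in TG, a change of -0.58 ± 0.13 (limma, adjusted p = 0.0248). A second Rsad2 probe also passed (-0.43 ± 0.10, limma, adjusted p = 0.0319), and the third, the dimmest, did not (-0.35 ± 0.26).

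The neighbour of Rsad2, Cmpk2, a nucleotide kinase of mitochondria that is usually induced with it, had changes above 0 at both probes (0.11 ± 0.10 and 0.13 ± 0.06), neither of which passed. Ifit1, Ifit2 and Ifit3, which bind viral RNA, read 0.24 to 0.46, 0.26 to 0.39 and 1.73 to 2.25 in TGC3 and 0.11 to 0.62, 0.03 to 0.35 and 1.71 to 2.11 in TG. Their changes were 0.06 ± 0.15, 0.18 ± 0.10 and 0.16 ± 0.17, and the groups overlapped for each. Mx1, the paralogue of Mx2, was separate at its brighter probe without passing (-0.46 ± 0.15, limma, adjusted p = 0.0733), and passed under 5 of the alternatives. Bst2, which encodes tetherin, varied within both groups, with TGC3 2 and TG 2 low (1.99 and 1.93) and the other 4 arrays at 2.60 to 2.84 (change -0.03 ± 0.29). Ifitm3, which blocks viral entry, varied most of all members, from -3.81 to -2.61 in TGC3 and from -3.63 (TG 2) to -1.57 (TG 3) in TG. Its change of -0.98 ± 0.59 was as large as that of Mx2 and did not pass (limma, adjusted p = 0.276). Samd9l, a growth inhibitor, had a change of -0.14 ± 0.08.

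Of the other 6 genes, Ifi35 fell. This leucine zipper protein (NM_027320, mm9, chromosome 11, 101319011 to 101319070) read 2.94, 2.87 and 2.89 in TGC3 and 3.12, 3.09 and 3.20 in TG, a change of -0.24 ± 0.06 (limma, adjusted p = 0.0418). The brightest of the remainder, Lgals3bp (-0.11 ± 0.10), Rtp4 (-0.19 ± 0.15) and Xaf1 (0.04 ± 0.13), had overlapping groups, as had Tor3a (-0.07 ± 0.08). Ifi44, dim on all arrays, differed by -0.61 ± 0.27 without passing (limma, adjusted p = 0.147).

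**Figure D2:**
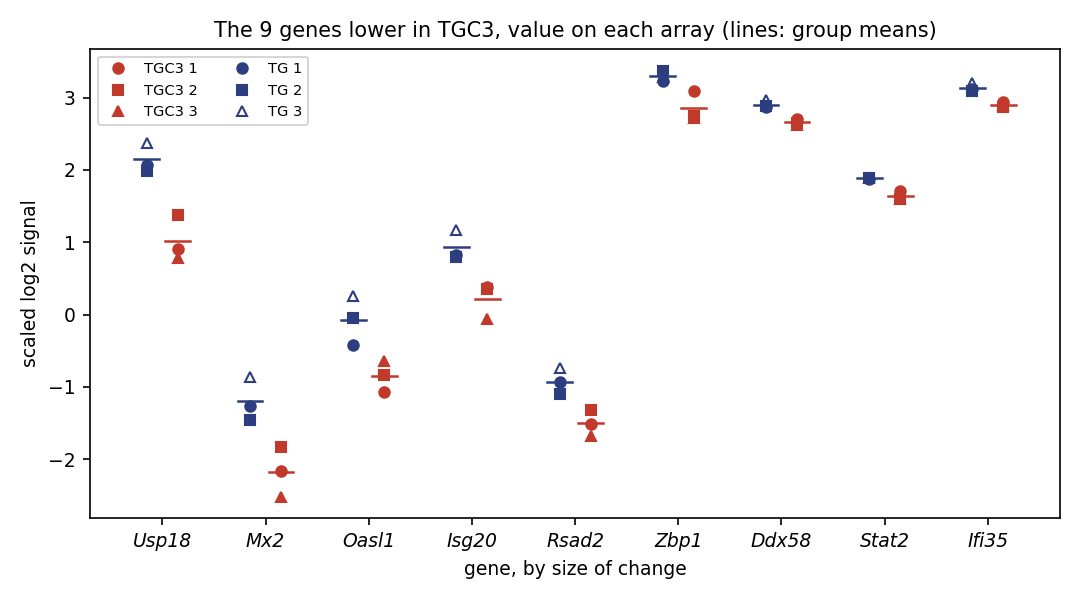
Scaled log2 signal (vertical axis) of the 9 genes that fell, on each of the 6 arrays, with lines at the group means. TGC3 arrays (red) lie below TG arrays (blue) for every gene shown, and the open triangle, TG 3, is the highest TG array for all but Zbp1.

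Where a gene had more than 1 kept probe, the probes mostly pointed the same way. Of 13 such genes, all probes lay below 0 in 8 and above 0 in 2 (Ifit2 and Cmpk2), and they lay on both sides of 0 in 3 (Herc6, Ifih1 and Irf9). Probes differed in their call for Ddx58, Rsad2 and Parp14. Counting a gene as lower if any probe passed would give 10 members in place of 9, the addition being Parp14.

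Changes over the whole array varied with signal level. When all probes tested were put into 10 equal classes by mean signal, the median change ran from 0.23 in the dimmest class to -0.09 in the brightest. Members sat in all 10 classes, with 40 of 55 probes in classes 5 to 9, where class medians lay between -0.07 and -0.01. Measured from the median of its own class, the change was -1.05 for Usp18, -1.02 for Mx2, -0.74 for Oasl1, -0.65 for Isg20, -0.57 for Rsad2 and -0.37 for Zbp1. For Stat2, Ddx58 and Ifi35 it was -0.18, -0.17 and -0.16, with class medians of -0.07. Over the 37 genes the median from the class was -0.16. The share of probes called lower was 5.26% to 11.0% by class.

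**Figure D3:**
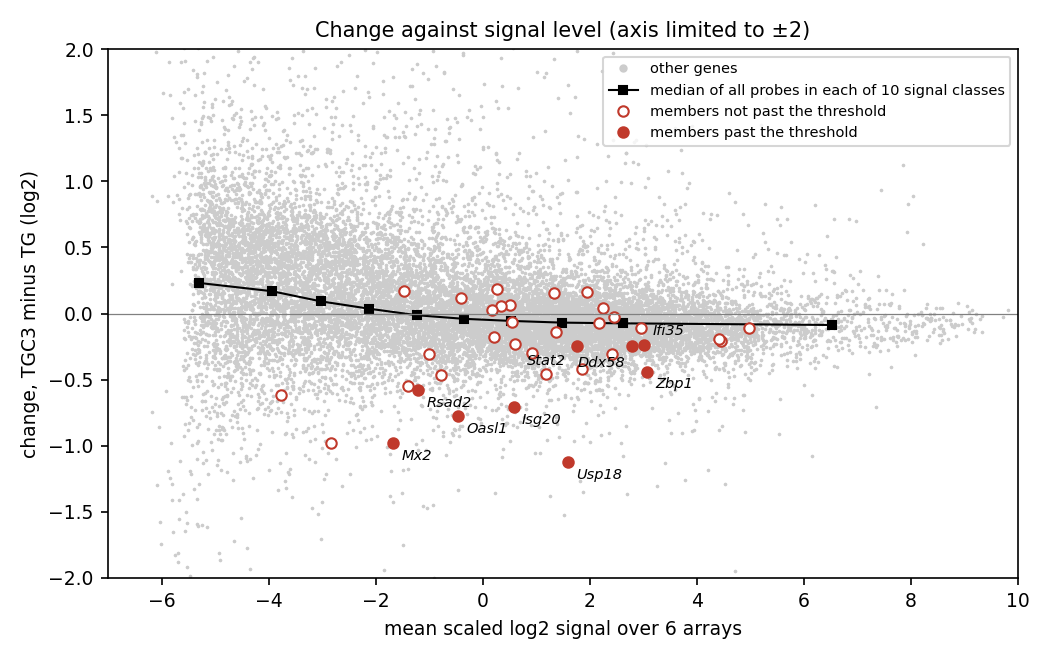
Change (TGC3 minus TG, log2, axis limited to ±2) against mean scaled log2 signal over the 6 arrays for all genes tested (grey), the 37 members (red) and the class medians of all probes (black line, from 0.23 at the dim end to -0.09 at the bright end). Usp18, Mx2, Oasl1, Isg20 and Rsad2 lie well below the line at middle signal.

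Of the members, 33 of 37 (89.2%) read highest within TG on TG 3, against 42.9% of all genes. Within TGC3, 25 of 37 (67.6%) read lowest on TGC3 3, against 37.3% of all genes. The median deviation of the members from their group mean was 0.20 on TG 3 and -0.11 on TGC3 3, against 0.01 and -0.01 for all genes. The members' within-group deviations correlated at a median r of 0.55 over 666 pairs of members, across 6 arrays that they all share. The same was not computed for pairs of other genes, so whether it is particular to the members cannot be told. The pooled within-group SD of the members had a median of 0.18, against 0.12 for all genes. Ifit1, Ifit3 and Xaf1 were among those with the highest TG value on TG 3 although their changes between the groups did not pass the test.

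**Figure D4:**
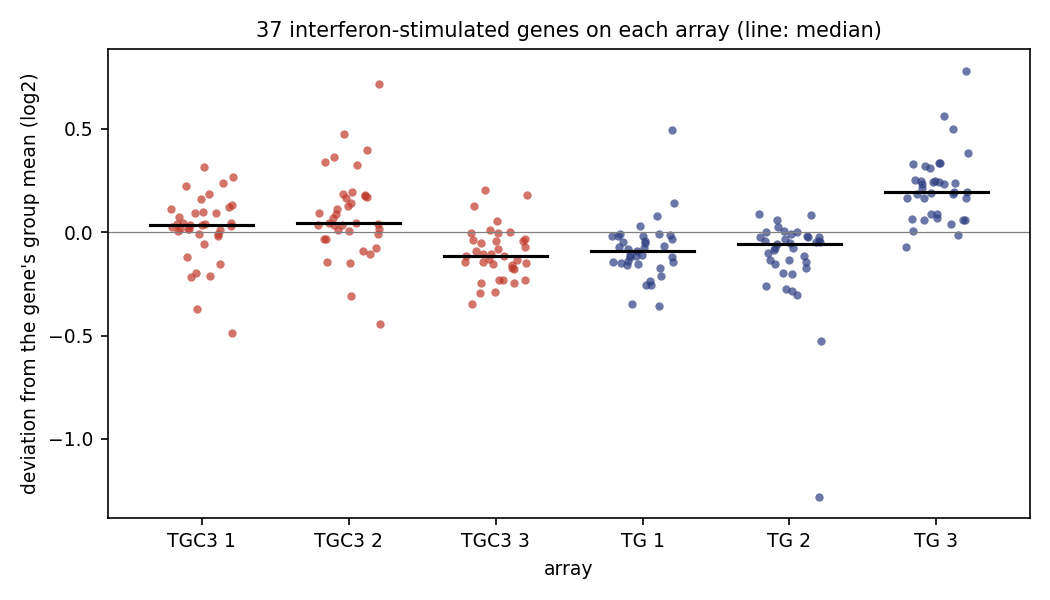
Deviation of each of the 37 genes from its own group mean (log2, vertical axis) on each array, with a line at the median. The points of TG 3 lie mostly above 0 (median 0.20) and those of TGC3 3 mostly below (median -0.11).

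Other genes of the interferon pathway, from lists chosen by function, are given beside the shares of all genes called lower (8.53%) and higher (16.1%). The share lower was 29% with median centring, 7.12% after cyclic loess and 8.35% after quantile normalization. With 1 array left out it was 2.92% to 8.23%. The genes higher, 2643 of 16395 here, were 1816, 2259 and 2163 under those scalings, in the same order. With 1 array left out they were 1593 to 2264. Of 19 genes of interferon receptors and signalling, 5 fell (26.3%) and 0 rose, with a median of -0.21, while 2 fell after cyclic loess normalization and 12 when arrays were centred on the median. These included Socs1, the feedback inhibitor of JAK kinases (-0.52 ± 0.11, limma, adjusted p = 0.0231), the phosphatase gene Ptpn6 (-0.42 ± 0.10, limma, adjusted p = 0.0360), the factor Irf3 (-0.36 ± 0.08, limma, adjusted p = 0.0241) and Ifnar1, a chain of the type I interferon receptor (-0.30 ± 0.07, limma, adjusted p = 0.0301). The count was 0 without TGC3 3, TG 1 or TG 3 and 2 without TGC3 1 or TG 2. Of 18 genes that act in or on the induction of interferon, whether promoting or restraining it, 2 fell (11.1%, near the share of all genes) and 0 rose (median -0.13). After quantile or cyclic loess normalization 1 fell and 2 rose, and 6 fell when arrays were centred on the median. The 2 that fell were the adaptor gene Tmem173, which encodes STING (-0.33 ± 0.08, limma, adjusted p = 0.0294), and Traf3 (-0.35 ± 0.09, limma, adjusted p = 0.0431). That count was 1 without TGC3 1 and 0 without any 1 of the other arrays.

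Of 15 interferon-inducible GTPases, many of which respond to interferon gamma, 2 fell (13.3%) and 0 rose (median -0.16). They were Irgm2 (-0.62 ± 0.09, limma, adjusted p = 0.00819) and Ifi47 (-0.40 ± 0.09, limma, adjusted p = 0.0239). The count was 1 without TGC3 3 or any 1 TG array. With median centring 4 fell, against 29% of all genes, and after cyclic loess 1 fell, against 7.12%. TG 3 was the highest TG array for 12 of these 15, while TGC3 3 was the lowest TGC3 array for 1. Of 16 genes of MHC class I and antigen processing, 1 fell, Nlrc5, the transactivator of MHC class I genes (-0.37 ± 0.08, limma, adjusted p = 0.0213), 0 rose, and the median was -0.09. That is 6.25% of the list, below the share of all genes. When arrays were centred on the median 10 fell, against 29% of all genes. The count was 0 when TGC3 1, TGC3 3, TG 1 or TG 2 was left out.

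Among the interferon genes themselves some rose. Ifng, which encodes interferon gamma, read 6.94, 6.50 and 6.75 in TGC3 and 5.94, 6.11 and 6.38 in TG, and rose by 0.59 ± 0.15 (limma, adjusted p = 0.0416). Of 17 interferon genes listed, 12 were on the array and 8 were tested, of which 4 rose and 0 fell. The other 3 were Ifna2, Ifna7 and Ifna13 (0.66 ± 0.12, 0.61 ± 0.06 and 0.55 ± 0.06, limma, adjusted p = 0.0130, 0.00268 and 0.00386). These interferon alpha genes are near-identical copies, so that their probes may share target, and all 3 were dim. They lay in classes 1 and 3 of the 10 signal classes, whose medians over all probes were 0.23 and 0.09. With TGC3 3, TG 1 or TG 2 left out, 3 of the 8 rose.

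**Figure D5:**
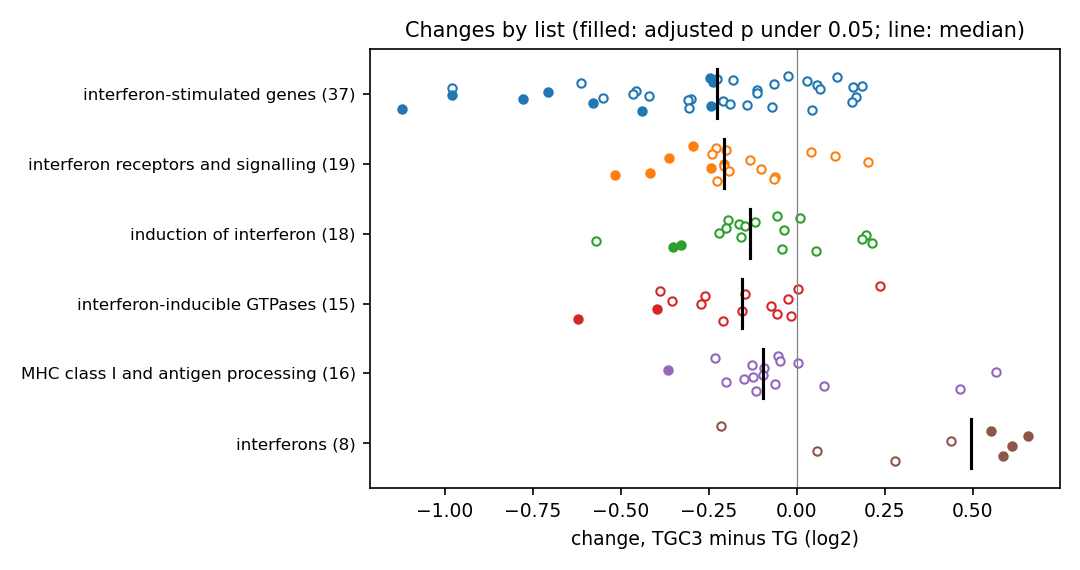
Changes (TGC3 minus TG, log2, horizontal axis) of the tested genes of each list, with the number of genes in brackets, filled where adjusted p was under 0.05 and with a line at the median. The medians run from -0.23 for the interferon-stimulated genes to -0.09 for MHC class I, apart from the 8 interferon genes, which lie mostly to the right of 0 (median 0.495).

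In a sorted population read in bulk, fewer cells of a type and less RNA per cell cannot be told apart, and cell type markers differed between the same groups. Of 9 T cell markers 2 fell, Cd5 (-0.41) and Cd3g (-0.29), and 0 rose, with a median of -0.20. Their summed scaled signal (in units of an array's 75th percentile) was 730 to 800 in TGC3 and 814 to 908 in TG, without overlap. Of the markers measured for other cells, 2 of 4 for neutrophils, 3 of 8 for macrophages and monocytes and 4 of 9 for conventional dendritic cells rose and 0 fell. For B cells 3 of 5 rose and 1 fell (Cd22, -0.92), for plasmacytoid dendritic cells 2 of 7 rose (Ly6d, 2.37, and Klk1, 1.15) and 1 fell, and for NK cells 0 of 8 rose and 2 fell. Several of those that rose passed the filter through TGC3, where they are high, and had to differ: S100a8, Ms4a1 and Ly6d were above background on 0 TG arrays and S100a9 and Klk1 on 1. Sums over neutrophil markers, 4 measured of 13, were 1.63 to 8.03 in TGC3 and 0.110 to 0.173 in TG, while Csf3r, Cxcr2, Elane, Lcn2 and Mmp8 were above background on no array. For macrophage and monocyte markers (8 of 17) the sums were 229 to 289 and 256 to 271, for conventional dendritic cells (9 of 11) 17.6 to 28.1 and 20.3 to 23.4, and for B cells (5 of 10) 6.08 to 6.54 and 6.22 to 7.52. Markers of plasmacytoid dendritic cells (7 of 10, with Bst2 left out), the cells known for making type I interferon, summed to 13.4 to 15.6 and 23.6 to 25.2, with Siglech and Cd209d above background on no array. The lower sum was carried by Ccr9, which T cells also express and which was 2.74 to 3.00 in TGC3 and 3.88 to 4.03 in TG, while the median change of the list was 0.15. NK cell markers (8 of 9) summed to 70.5 to 140 and 84.4 to 103. The NK, macrophage, conventional dendritic and B cell sums were each carried mostly by their brightest marker. Those were Gzma (5.84 to 6.95 over the 6 arrays), Ly6c2 (7.82 to 8.14), Itgax (3.74 to 4.50) and Cd79b (2.35 to 2.69). A sum so carried follows that gene and is not an amount of the cell type. Markers of hepatocytes (3 of 12), of endothelial and stellate cells (4 of 12) and of erythroid cells (3 of 5) each summed to less than 1 on every array. Of these dim markers 1 of 3, 2 of 4 and 2 of 3 also rose in TGC3, and 0 fell. On TG 3, the array with the highest interferon-stimulated genes, the NK, macrophage, conventional dendritic and B cell sums were the highest of TG (103, 271, 23.4 and 7.52). TGC3 2 stood further apart in its group, with sums of 140 for NK cells against 70.5 and 73.0, 8.03 for neutrophils against 1.63 and 3.04, and 28.1 for conventional dendritic cells against 18.9 and 17.6. The median deviation of the interferon-stimulated genes on TGC3 2 was 0.045. The part of these cells in the results was not tested.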

How the data were processed

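Spots were read with Agilent Feature Extraction, version 10.7.3.1 per the file headers and 10.7.1.1 per the submitters' processing notes. The deposited intensity (processed signal) had its background subtracted and was detrended array by array, per the file headers, and arrays were not normalized to each other. The deposited matrix holds log2 values whose sorted values are nearly the same in every column. How it was made is not given in the sources used here, and it was used as an alternative (0 unmapped columns).

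Of 45018 spots, 43379 were not controls. Spots of a probe were averaged on the log2 scale, 11 probes with outlier spots were left out, and 0 spots were saturated. The log2 signal minus each array's 75th percentile was fitted with limma 3.58.1 (lmFit and eBayes) (two-sided; R 4.3.3) over 25103 probes above background on at least 3 arrays. P-values were adjusted by Benjamini-Hochberg, with a threshold of 0.05. The brightest probe that passed this filter stands for its gene. The number of arrays limits the precision. Probe names and mm9 positions are those of the files. Figures used Python 3.11.15, numpy 2.4.6, pandas 2.3.3 and matplotlib 3.10.9. The fit was tested on simulated data with errors independent between probes and no slide effect. These arrays differ from that setting, so the simulation cannot tell how far the slide enters the calls.

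Members past the threshold are given with all values, and of the others up to 3 per role with the highest signal; further members named were chosen after their values were seen. Of the other lists, up to 4 genes past the threshold are given. The members and lists were chosen with earlier results of these data known, and lists were described by counts and medians without a test of the list. Alternatives changed the scaling, source of values, background correction, filter, choice of probe, variance model, weights, pairing, matching and arrays. Values of some genes in the other lists are not reported here.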

Additional observations from a re-analysis of the deposited data

How the results depend on the processing

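The number of members called higher was 0 under every alternative run. The number lower, 9 in the values reported, was 5 (13.5%) after quantile normalization, after cyclic loess normalization and with the deposited normalized values. In these 8.35%, 7.12% and 8.33% of all genes were lower, and in each Stat2, Ddx58, Ifi35 and Zbp1 did not pass. It was 17 (45.9%) when arrays were centred on the median, with 29% of all genes lower against 8.53% in the values reported. Centring moved the median of all genes from -0.01 to -0.18. The members' median lay 0.22 below that of all genes (-0.2193) in both. This had to be so, since both scalings subtract a constant from each array. The number lower was 1 with no filter (Usp18, 2.63%, against 1.88% of all genes). It was 2 (Oasl1 and Usp18, 5.41%) with the replicate block, in which 2.89% of all genes were lower. The labels give same-numbered samples a shared number and do not say whether they were paired. Their deviations over genes correlated at -0.099 to -0.0029, which with 3 arrays a group cannot decide it. The number lower was 1 to 5 when 1 array was left out. With normexp (offset 50) it was 0, but only 1 of all 16395 genes was called lower and 0 higher. There 4 members were lower at an unadjusted p under 0.05 in limma, and the members' median was 0.032. Once 7 aberrant spot backgrounds of TG 3 were replaced by that array's median the number was 11 (29.7%, against 11.2% of all genes) and the median -0.22. The unrepaired normexp values were 0.11 for Ifi35, 0.12 for Ddx58 and 0.078 for Stat2, the called members that changed sign. Usp18 passed in 13 of 14 alternatives other than leaving out an array, and did not pass with the unrepaired normexp correction. Of the 9, Oasl1 passed in 12, Isg20 and Mx2 in 11, Rsad2 in 10, Stat2 and Ifi35 in 8, and Zbp1 and Ddx58 in 7.

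Calls were gained too, by Mx1 in 5 alternatives, Trim25 in 4, Parp14 in 2, and Oas1a, Oas2, Oas3, Eif2ak2 and Samd9l in 1. The members that passed neither way and changed sign were these. Unrepaired normexp gave 0.32 for Lgals3bp, 0.16 for Parp14, 0.23 for Rtp4, 0.22 for Irf9, 0.34 for Bst2, 0.032 for Trim25, 0.26 for Tor3a, 0.12 for Samd9l, 0.11 for Ifih1, -0.0082 for Cmpk2 and -0.22 for Oas1b. Median centring gave -0.13 for Xaf1, -0.015 for Ifit3, -0.017 for Parp9, -0.11 for Irf7, -0.12 for Ifit1, -0.15 for Herc6, -0.060 for Cmpk2 and -0.0078 for Oas1b. Bst2 was 0.035 after quantile normalization, 0.036 with the deposited values, 0.045 after cyclic loess and 0.21 with array weights. The mean of a gene's probes gave 0.030 for Irf9, 0.10 for Ifih1 and -0.23 for Herc6. When 1 array was left out, Bst2 ran from -0.29 to 0.20, Xaf1 from -0.045 to 0.14, Herc6 from -0.047 to 0.15, Ifih1 from -0.12 to 0.018 and Ifit1 from -0.041 to 0.21. The cause of these changes was not tested. A member matched by accession (Ifi27, named Ifi27l1 in the files) left the number lower at 9. Oas1g alone among the members on the array was left untested for low signal, since it was not well above background on any array. Some tested members were dim too, with Ifi44 and Ifitm3 in signal classes 2 and 3 of 10.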
